A study of Mus musculus with 78 samples.

Results

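The genes described here encode the subunits of cytoplasmic dynein, the subunits of its activator dynactin, and the adaptors that join both complexes to cargo. They are 37 genes, set against 18194 genes measured in all: 10 dynein subunits, 12 dynactin subunits and 15 cargo adaptors. The choice was by name and role and not by a measured value, though earlier results of these data were known. Of the 37 genes 34 were measured by at least 1 probe set assigned to that gene alone. Actr1b, Actr10 and Bicd1 were not analysed here. Where a gene has several probe sets, the one brightest on average over the 78 arrays stands for it.

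Cytoplasmic dynein is the motor that carries cargo toward the minus ends of microtubules. It moves over long distances only when dynactin and a coiled-coil adaptor bind it, and LIS1 and NDEL1 regulate its assembly and its hold on the microtubule. In the developing brain dynein positions the nucleus of dividing and migrating neural cells, and in neurons it carries endosomes, lysosomes, mitochondria and signals back from the axon.

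Gene expression was measured in total RNA of mouse brain on 78 Affymetrix arrays, 1 array per sample, from embryos at E14 (embryonic day 14), newborns (P0) and pups at postnatal day 14 (P14). There are 26 groups, each with 3 biological replicates per the labels. Wild types were of mixed background A or mixed background B at all 3 ages, and of an inbred background, named WT129s6 in the titles, at P0 and P14. At E14 the mutant groups were Dcx ko/Y, Lis1 ko/+, Lis1 ko/cko, Ndel1 ko/+, Ndel1 ko/cko and 14-3-3 epsilon ko/ko. At P0 they were Dcx ko/Y, Lis1 ko/+ (titled Mix), Lis1 ko/cko (titled Mix), Ndel1 ko/+, Ndel1 ko/cko, inbred Ndel1 ko/+ and inbred 14-3-3 epsilon ko/ko. At P14 they were Lis1 ko/+, Lis1 ko/cko, Ndel1 ko/+, Ndel1 ko/cko and a Ndel1 ko/+ group labelled with a mix background. Ko is a knockout allele and cko a conditional allele. The labels name no Cre driver and no dissected brain region, and do not say which mixed background a mutant belongs to. Lis1 is the gene Pafah1b1, Ndel1 is written Ndel in the genotype labels and nudel in the titles, and 14-3-3 epsilon is the gene Ywhae.

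Proximal promoters are shown for the paralogous intermediate chains Dync1i1 and Dync1i2, whose difference within an array shifted most of all pairs from E14 to P0, for the light chain Dynlrb2, with the largest fall from P0 to P14, and for the adaptor Spdl1, with the largest fall from E14 to P0. Each is the RefSeq sequence of build GRCm38.p6, 300 bases long, from 250 bases before to 50 bases after the annotated start of transcription, written on the strand of the gene. Dync1i1 lies at chr6:5725389-5725688 (+), Dync1i2 at chr2:71211456-71211755 (+, the first of 2 listed starts), Dynlrb2 at chr8:116504765-116505064 (+) and Spdl1 at chr11:34833592-34833891 (−). Capitals mark matches to 3 motifs searched on both strands: the CCAAT box (CCAAT), the cell cycle homology region of cell cycle genes (TTTGAA) and a core of the X-box that RFX factors bind in genes of cilia (GTTGCC).
Dync1i1: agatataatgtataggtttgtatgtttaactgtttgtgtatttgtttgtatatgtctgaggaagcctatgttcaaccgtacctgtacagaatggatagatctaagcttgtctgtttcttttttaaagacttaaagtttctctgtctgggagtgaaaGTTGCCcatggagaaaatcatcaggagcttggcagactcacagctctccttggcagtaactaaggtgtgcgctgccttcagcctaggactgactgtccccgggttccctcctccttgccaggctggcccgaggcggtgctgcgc
Dync1i2: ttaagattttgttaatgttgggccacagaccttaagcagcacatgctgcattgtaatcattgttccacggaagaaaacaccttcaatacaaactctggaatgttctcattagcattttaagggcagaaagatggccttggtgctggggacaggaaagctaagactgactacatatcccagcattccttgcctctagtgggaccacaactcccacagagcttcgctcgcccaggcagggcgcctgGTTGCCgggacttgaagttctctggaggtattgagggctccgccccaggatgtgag
Dynlrb2: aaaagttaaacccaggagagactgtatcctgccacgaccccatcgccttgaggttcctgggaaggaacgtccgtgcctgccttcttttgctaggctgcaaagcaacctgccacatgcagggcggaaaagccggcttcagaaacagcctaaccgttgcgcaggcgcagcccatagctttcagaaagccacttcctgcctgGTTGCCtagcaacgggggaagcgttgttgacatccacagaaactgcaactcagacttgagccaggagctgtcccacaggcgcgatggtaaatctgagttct
Spdl1: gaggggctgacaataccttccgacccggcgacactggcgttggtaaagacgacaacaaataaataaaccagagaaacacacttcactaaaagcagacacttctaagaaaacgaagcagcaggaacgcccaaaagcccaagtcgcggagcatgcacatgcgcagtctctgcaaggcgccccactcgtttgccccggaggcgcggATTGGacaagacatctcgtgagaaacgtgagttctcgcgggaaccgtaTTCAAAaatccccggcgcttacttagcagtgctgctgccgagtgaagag

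The windows of Dync1i1, Dync1i2 and Dynlrb2 each hold 1 GTTGCC, counted from the start of the window at bases 157, 245 and 200. The Spdl1 window holds CCAAT at base 204 and TTTGAA at base 252, both on the opposite strand. Of 32851 mouse promoters of this length 12.5% hold GTTGCC, 37.4% hold CCAAT and 17.9% hold TTTGAA. Promoters were found for 31 of the 37 genes, and among them 6 (19.4%) hold GTTGCC, 11 (35.5%) hold CCAAT and 3 (9.68%) hold TTTGAA. A match says only that these letters are in the window.

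The mean log2 level of 16 neuron markers lay between 8.21 and 9.01 in the E14 arrays, between 9.39 and 9.91 at P0 and between 11.54 and 11.69 at P14. Values look normalized within each age, so changes between ages are given relative to the median gene, and levels as deposited. At P0 and P14 the arrays fall into 2 sets along the first principal component (38.78% and 56.59% of the variance), with 0 of 10 and 0 of 8 groups on both sides. Dcx ko/Y and the Ndel1 mutants without a background label lie on the side of mixed B, and all other groups on the side of mixed A, so background, mutation and any shared handling cannot be told apart there. The 3' minus 5' log2 difference of the actin control probe sets, a sign of RNA or labelling quality, was 0.122 to 0.214 on the mixed A side and 0.274 to 0.449 on the mixed B side at P0, and overlapped at P14 (0.497 to 0.956 and 0.627 to 0.717). At E14 this difference was 0.125 to 0.244 and 0.106 to 0.223. All P14 arrays lay above all P0 arrays in it, and its part in the changes from P0 to P14 was not tested. A set of 6 arrays at E14 (Lis1 ko/cko replicates 1 and 3, Lis1 ko/+ replicate 1, 14-3-3 epsilon replicate 2 and mixed A replicates 2 and 3) had a mean level of hindbrain genes of 4.32 to 4.57, against 5.02 to 7.08 in the other 18. Doublecortin (Dcx) was at 4.16 to 4.87 in the Dcx ko/Y arrays and Ywhae at 9.72 to 10.04 in inbred 14-3-3 epsilon ko/ko at P0. Pafah1b1 in the Lis1 mutants was at 9.66 to 10.14 at E14, below both mixed wild types, and at 9.91 to 10.18 at P0, where mixed B (9.81 to 10.11) overlapped. Some libraries go against their labels in the targeted gene: 14-3-3 epsilon replicates 1 and 2 at E14 kept Ywhae at 12.68 and 12.92, against 9.97 in replicate 3. Ndel1 was not lower in the libraries labelled inbred Ndel1 ko/+ at P0 (mean 10.06, inbred wild type 9.91) or mix-labelled Ndel1 ko/+ at P14 (10.55, mixed A 10.39), and differed little in those labelled Ndel1 ko/cko at E14 (9.82, mixed B 9.91). Xist, which is transcribed from an inactive X chromosome, was high in 6 arrays: all 3 of E14 Ndel1 ko/cko (12.02, 11.91 and 12.02), E14 mixed B replicate 1 (11.99), P0 Ndel1 ko/cko replicate 3 (11.54) and P0 Dcx ko/Y replicate 2 (11.27), whose label names a Y chromosome. It lay between 4.15 and 5.62 in the others, so sex and genotype cannot be told apart in E14 Ndel1 ko/cko.

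From E14 to birth the dynein genes were rearranged rather than raised or lowered together. Among the subunits the neuronal intermediate chain Dync1i1 and the light chain Dynlt3 rose, while the widely expressed intermediate chain Dync1i2 and the light chain Dynll2 fell. Among the adaptors Spdl1, which brings dynein to kinetochores, and Ninl, a centrosomal protein, fell most, and Mapk8ip1, an adaptor of axonal transport, and Hook2, which links dynein to the centrosome, rose. In the mixed wild types 17 of the 34 genes were called (adjusted p under 0.05 in limma, same direction in both backgrounds), 10 higher and 7 lower, which is 50% against 46% of all 12865 genes tested (23.5% higher, 22.4% lower). Their median change was 0.08, against 0.00 for all genes, and their median absolute change 0.33, against 0.38. The share called is near the background and says nothing particular about these genes. By class, 4 dynein subunits rose and 2 fell of 10, 3 dynactin subunits rose and 1 fell of 10, and 3 adaptors rose and 4 fell of 14. On the deposited scale, without the shift to the median gene, 5 members were called higher and 10 lower (33.3% higher against 58.8%; all genes 29.7% against 51.2%).

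**Figure D1:**
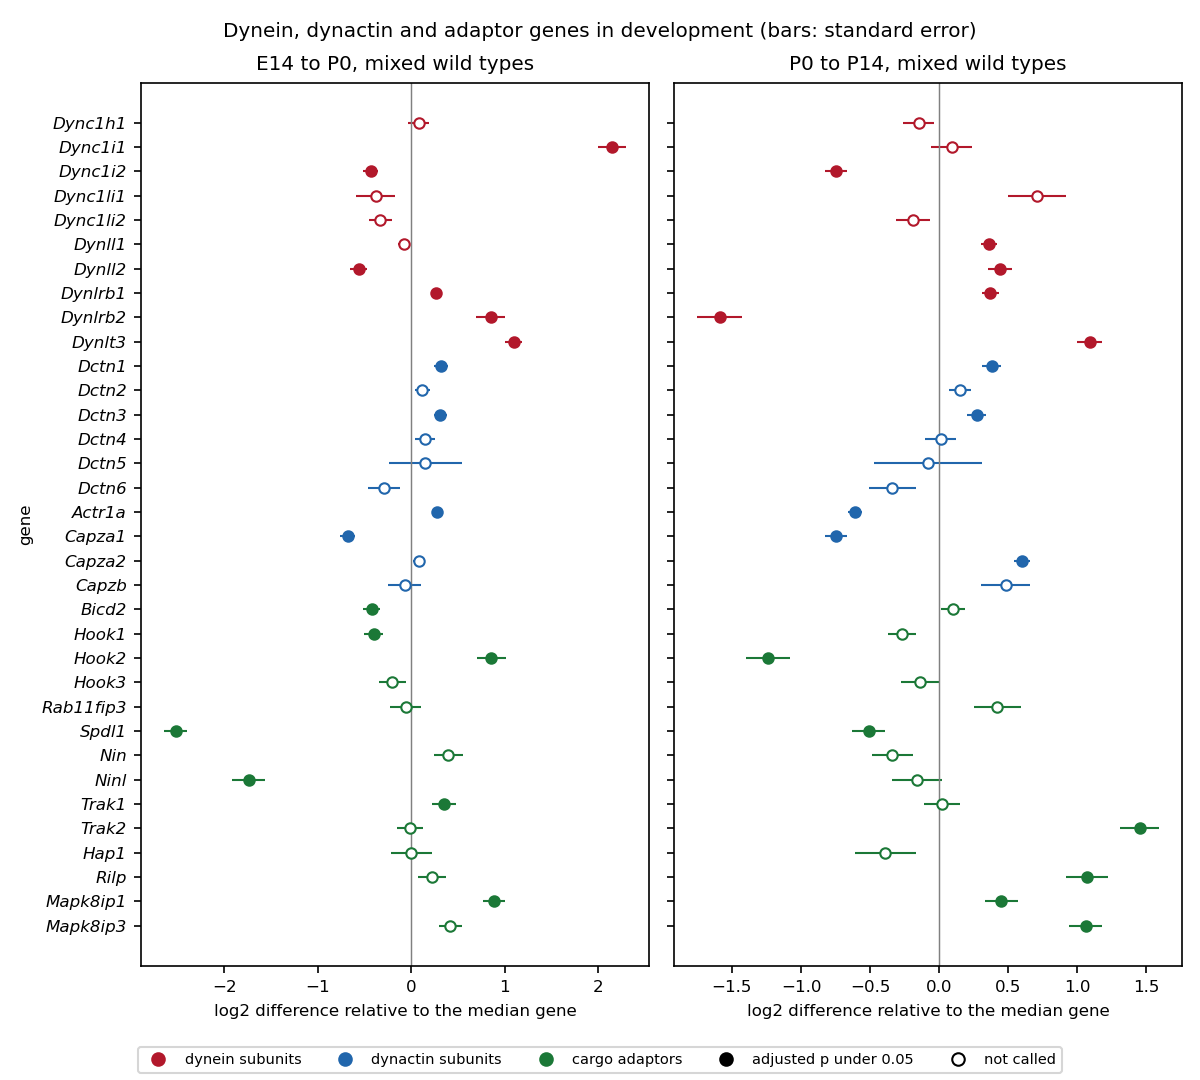
Change of each of the 34 genes from E14 to P0 (left) and from P0 to P14 (right) in the mixed wild types, as the log2 difference relative to the median gene (horizontal axis) with its standard error; filled points have an adjusted p under 0.05 and colours give the class. Dync1i1 and Spdl1 lie farthest out from E14 to P0, at 2.15 and −2.52, and Trak2 and Dynlrb2 from P0 to P14, at 1.45 and −1.59.

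Dync1i1, the intermediate chain enriched in neurons, read 7.98, 8.86 and 8.85 in the E14 mixed A arrays and 8.59, 8.79 and 8.69 in the E14 mixed B arrays. At P0 the Dync1i1 values were 10.50, 10.56 and 10.57 in the P0 mixed A arrays and 10.65, 10.70 and 10.59 in the P0 mixed B arrays. All P0 arrays lay above all E14 arrays. Its change was 2.15 ± 0.15 (SE; adjusted p = 9.08e-11, limma). Dync1i2, the intermediate chain found in most cells, went the other way, from 11.05, 11.17 and 11.31 (lowest, median and highest of the 6 mixed arrays at E14) to 10.32, 10.59 and 10.74 at P0, without overlap. It fell by 0.43 ± 0.08 (adjusted p = 0.000295, limma). In bulk RNA fewer cells of a type and less RNA per cell cannot be told apart, here and below.

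Dynlt3, a light chain of the Tctex family, read 8.85, 8.77 and 8.67 in the E14 mixed A arrays and 8.91, 8.75 and 8.90 in the E14 mixed B arrays. The P0 values of Dynlt3 were 9.59, 9.53 and 9.98 in the P0 mixed A arrays and 9.82, 9.71 and 9.70 in the P0 mixed B arrays. The ages did not overlap, and the rise was 1.10 ± 0.09 (adjusted p = 5.68e-10, limma). Each of its 3 further probe sets was also called higher. Dynlrb2, a roadblock light chain, had a lowest, median and highest of 5.71, 6.25 and 6.45 at E14 and 6.30, 7.02 and 7.14 at P0, so that the lowest P0 array lay within the E14 range. Its change of 0.85 ± 0.16 (adjusted p = 0.000323, limma) was still called. Its paralogue Dynlrb1 rose by 0.27 ± 0.06 (adjusted p = 0.00086, limma), a call lost on the deposited scale. Dynll2, a light chain of the LC8 family, ranged from 11.72 to 12.09 at E14 and from 11.16 to 11.29 at P0 and fell by 0.56 ± 0.09 (adjusted p = 0.000151, limma), while its other probe set gave −0.28 and was not called. Its paralogue Dynll1 changed by −0.08 ± 0.06 (adjusted p = 0.95, limma).

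The motor subunit itself was not called: Dync1h1, the heavy chain, ranged from 10.76 to 11.18 at E14 and from 10.70 to 10.90 at P0, a difference of 0.08 ± 0.11 (adjusted p = 0.765, limma). The light intermediate chains, which hold the adaptors, differed by −0.38 ± 0.21 (Dync1li1, opposite signs in the 2 backgrounds) and −0.33 ± 0.12 (Dync1li2, adjusted p = 0.0899), and neither was called.

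Among the dynactin genes Capza1, an alpha subunit of the capping protein at the barbed end of the dynactin filament, read 10.85, 10.75 and 10.72 in the E14 mixed A arrays and 10.69, 10.65 and 10.63 in the E14 mixed B arrays. At P0 the Capza1 values were 9.93, 9.91 and 10.19 in the P0 mixed A arrays and 9.62, 9.74 and 9.69 in the P0 mixed B arrays. The ages did not overlap, Capza1 fell by 0.68 ± 0.08 (adjusted p = 1.09e-06, limma), and its other probe set was called lower too. Dctn1, the large subunit that touches the microtubule, rose by 0.32 ± 0.07 (adjusted p = 0.00062, limma). Dctn3, of the shoulder, rose by 0.31 ± 0.07 (adjusted p = 0.000834), and Actr1a, the actin-related protein of the filament, by 0.28 ± 0.05 (adjusted p = 0.00978). These 3 calls were lost on the deposited scale, and that of Actr1a also with no filter or without E14 mixed B replicate 3. The other 6 dynactin genes lay between −0.29 (Dctn6) and 0.15 (Dctn4 and Dctn5) and were not called.

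Spdl1, the adaptor of dividing cells, read 7.31, 7.67 and 7.77 in the E14 mixed A arrays and 7.21, 7.14 and 7.07 in the E14 mixed B arrays. The P0 values of Spdl1 were 4.61, 4.91 and 4.56 in the P0 mixed A arrays and 4.52, 4.74 and 4.60 in the P0 mixed B arrays. Every P0 array lay below every E14 array and below 5.253, the median of all values that served as the expression filter. The fall was −2.52 ± 0.12 (adjusted p = 5.90e-13, limma), the largest change of the 34 genes in either direction. All 15 measured markers of proliferating cells fell in the same step, with a median of −2.20, and their part in the fall of Spdl1 was not tested. Ninl, the ninein-like centrosomal protein, read 5.48, 5.68 and 5.65 in the E14 mixed A arrays and 5.78, 5.29 and 6.03 in the E14 mixed B arrays. At P0 the Ninl values were 3.43, 3.13 and 3.25 in the P0 mixed A arrays and 4.60, 3.71 and 4.24 in the P0 mixed B arrays, all below the filter. It fell by 1.74 ± 0.18 (adjusted p = 2.39e-06, limma), without overlap.

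Mapk8ip1, which binds kinesin and dynein on axonal cargo, read 8.30, 8.20 and 7.78 in the E14 mixed A arrays and 8.25, 8.35 and 8.39 in the E14 mixed B arrays. At P0 the Mapk8ip1 values were 9.26, 8.94 and 9.31 in the P0 mixed A arrays and 8.65, 8.62 and 8.68 in the P0 mixed B arrays. The ages did not overlap, though by a small margin, and the rise was 0.89 ± 0.12 (adjusted p = 0.000763, limma). The other probe set of Mapk8ip1 gave 0.37 ± 0.24 and was not called. Hook2 rose from a median of 5.90 to 6.47, by 0.86 ± 0.16 (adjusted p = 0.000143, limma), with no overlap between 5.61 to 6.15 at E14 and 6.30 to 6.86 at P0. Bicd2, an adaptor of Golgi vesicles and of the nucleus, changed by −0.42 ± 0.09 (adjusted p = 0.00364), and Hook1, an adaptor of endosomes, by −0.40 ± 0.10 (adjusted p = 0.025). Both are limited by their probe sets: none of the 5 further probe sets of Bicd2 and not the other one of Hook1 was called lower, and values reached 1.00 and 0.38. The Hook1 call was also lost without E14 mixed B replicate 2 or 3 or P0 mixed B replicate 2. Trak1, an adaptor of mitochondria, changed by 0.35 ± 0.13 (adjusted p = 0.0433, limma), a call kept in only 3 of 12 fits that left out 1 array and lost on the deposited scale. Neuron markers rose in 12 of 16 cases, with a median of 1.08, beside the rises of Dync1i1, Dynlt3 and Mapk8ip1, and their part was not tested.

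**Figure D2:**
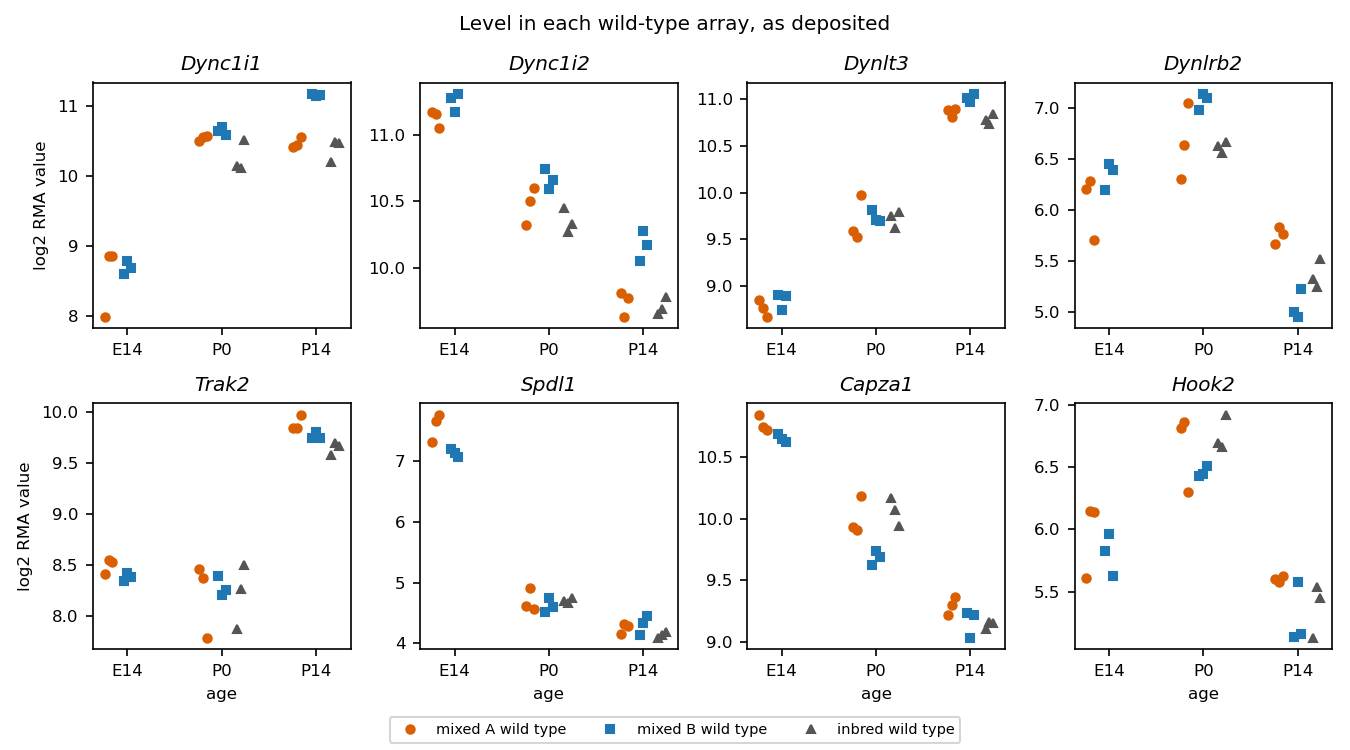
Level of 8 members (log2 RMA value as deposited, vertical axis, 1 scale per panel) in each wild-type array at E14, P0 and P14 (horizontal axis); circles are mixed A, squares mixed B and triangles inbred. Dync1i1 rises from 7.98 to 8.86 at E14 to 10.50 to 10.70 at P0 in the mixed arrays, while Spdl1 drops from 7.07 or more to 4.91 or less.

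From P0 to P14 the mitochondrial adaptor Trak2 and the lysosomal adaptors Rilp and Mapk8ip3 went up, and the light chain Dynlrb2 and the centrosomal adaptor Hook2 went back down. Trak2, Rilp and Mapk8ip3 rose by about 1 log2 unit or more, and Dynlt3 rose again by as much as before birth. Dync1i2 and Capza1 fell for a second time. Of the 34 genes 17 were called in the mixed wild types, 11 higher and 6 lower, which is 50% against 55.7% of all genes (28.1% higher, 27.6% lower). Their median change was 0.06 and their median absolute change 0.38, against 0.00 and 0.48 for all genes. In the same step 7 of 7 myelin markers (median 3.42), 8 of 8 of microglia (1.53), 6 of 8 of astrocytes (1.71) and 14 of 16 of neurons (1.61) rose, and 15 of 15 of proliferating cells fell (median −1.37). The part of cell composition in the members' changes was not tested. By class, 4 dynein subunits rose and 2 fell, 3 dynactin subunits rose and 2 fell, and 4 adaptors rose and 2 fell. Without the shift to the median gene 12 members were called higher and 6 lower (all genes 60.8% higher against 50.5%).

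Trak2, which tethers mitochondria to the motors, read 8.47, 8.38 and 7.79 in the P0 mixed A arrays and 8.40, 8.21 and 8.26 in the P0 mixed B arrays. At P14 the Trak2 values were 9.85, 9.85 and 9.98 in the P14 mixed A arrays and 9.75, 9.81 and 9.75 in the P14 mixed B arrays. The ages did not overlap. Trak2 rose by 1.45 ± 0.14 (adjusted p = 6.66e-09, limma), and its second probe set gave 0.41 against 1.52 for this one in the fit of every probe set and was not called. Rilp, which couples late endosomes and lysosomes to dynein, read 4.59, 4.58 and 4.55 in the P0 mixed A arrays and 4.75, 4.40 and 4.60 in the P0 mixed B arrays. At P14 the Rilp values were 6.16, 6.03 and 6.04 in the P14 mixed A arrays and 5.42, 5.61 and 5.42 in the P14 mixed B arrays, above the filter for the first time and above all P0 arrays. The rise was 1.07 ± 0.15 (adjusted p = 7.01e-05, limma). Mapk8ip3, needed for the transport of lysosomes out of axons, ranged from 7.90 to 8.57 at P0 and from 8.98 to 9.98 at P14 and rose by 1.06 ± 0.12 (adjusted p = 1.73e-07, limma). Its other tested probe set was called higher too. Mapk8ip1 rose less, by 0.45 ± 0.12 (adjusted p = 0.00745, limma). That call was lost without P0 mixed A replicate 2, and the second probe set of Mapk8ip1 changed by −0.23.

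Dynlt3 had P14 values of 10.88, 10.81 and 10.90 in the P14 mixed A arrays and 11.01, 10.97 and 11.06 in the P14 mixed B arrays, all above the P0 arrays given before. Its rise was 1.09 ± 0.09 (adjusted p = 1.16e-09, limma), again shared by its 3 further probe sets. Dynll2 rose by 0.44 ± 0.09 (adjusted p = 0.00068), Dynlrb1 by 0.37 ± 0.06 (adjusted p = 0.0006) and Dynll1 by 0.36 ± 0.06 (adjusted p = 0.0022). So Dynll2, which had fallen before birth, turned upward. Of the further probe sets of Dynll1 2 of 3 were called higher as well, while the last gave −0.49 and was not called. Dync1h1 ranged from 10.32 to 11.11 at P14 and differed by −0.15 ± 0.11 (adjusted p = 0.722, limma).

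Dynlrb2 read 6.30, 6.64 and 7.05 in the P0 mixed A arrays and 6.98, 7.14 and 7.10 in the P0 mixed B arrays. At P14 the Dynlrb2 values were 5.67, 5.83 and 5.76 in the P14 mixed A arrays and 5.0, 4.95 and 5.23 in the P14 mixed B arrays. All P14 arrays lay below all P0 arrays, and the fall of −1.59 ± 0.16 (adjusted p = 2.63e-06, limma) was the largest of the 34 genes in this step. Markers of ciliated ependyma, whose cells carry motile cilia, rose in 4 of 8 cases from E14 to P0 and, from P0 to P14, in 2 (Dnaic1 1.48, Ccdc153 0.56) and fell in 3 (among them Foxj1 −1.23 and Cfap126 −0.92). Their part in the course of Dynlrb2 was not tested.

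Hook2 read 6.81, 6.86 and 6.30 in the P0 mixed A arrays and 6.43, 6.44 and 6.51 in the P0 mixed B arrays. At P14 the Hook2 values were 5.60, 5.58 and 5.63 in the P14 mixed A arrays and 5.14, 5.58 and 5.16 in the P14 mixed B arrays, without overlap, and it fell by 1.24 ± 0.16 (adjusted p = 8.18e-07, limma). The values 5.14 and 5.16 lay below the filter. Capza1 had P14 values of 9.22, 9.30 and 9.36 in the P14 mixed A arrays and 9.23, 9.03 and 9.22 in the P14 mixed B arrays, below every P0 array, and fell by 0.75 ± 0.08 (adjusted p = 4.12e-07, limma). Dync1i2 read 10.32, 10.50 and 10.60 in the P0 mixed A arrays and 10.74, 10.59 and 10.66 in the P0 mixed B arrays. At P14 the Dync1i2 values were 9.81, 9.63 and 9.77 in the P14 mixed A arrays and 10.05, 10.28 and 10.17 in the P14 mixed B arrays, the highest of them just under the lowest at P0. Dync1i2 fell by 0.75 ± 0.08 (adjusted p = 6.61e-07, limma). Dync1i1 was not called in this step, with 0.09 ± 0.15 and opposite signs in mixed A and mixed B.

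The alpha capping subunits parted further: Capza2 ranged from 10.90 to 11.16 at P0 and from 11.63 to 11.98 at P14 and rose by 0.60 ± 0.06 (adjusted p = 5.75e-07, limma). Actr1a, whose rise before birth was not called on the deposited scale, changed by −0.61 ± 0.05 (adjusted p = 8.22e-09, limma). Dctn1 rose by 0.38 ± 0.07 (adjusted p = 3.54e-05, limma), while its other probe set gave 0.23 and was not called. Dctn3 changed by 0.27 ± 0.07 (adjusted p = 0.00809, limma), a call lost with no filter and after quantile normalization. Capzb, the beta capping subunit, had 0.48 ± 0.18 and was not called (adjusted p = 0.271), while its 2 further tested probe sets were called higher. Spdl1, already below the filter, fell by 0.51 ± 0.12 (adjusted p = 0.0059, limma), a call lost without P14 mixed B replicate 1. Hook3, an adaptor of endosomes and the Golgi, was not called in either step (−0.20 and −0.14), although each of its 3 further probe sets was called lower in both, down to −1.11 and −1.35. Rab11fip3, of recycling endosomes, and Hap1, the huntingtin-associated protein, had 0.42 ± 0.17 and −0.39 ± 0.22 and were not called.

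The genes of a pair can be compared within an array, where a shift common to all genes of the array cancels. A scaling that depends on the level of a gene would not cancel. For 9 pairs the log2 difference between both genes was set against age over 6 and 6 mixed wild-type arrays (exact two-sided permutation test, smallest possible p 0.00216, adjusted over 18 tests). A change of this difference shows that the pair shifted unequally, not which gene is more abundant. From E14 to P0 6 of 9 pairs shifted and from P0 to P14 also 6 of 9. Both counts include Mapk8ip1 and Mapk8ip3, which share a family name but are not paralogues. With second probe sets, for the genes that have them, the counts were 5 and 4. Dync1i1, Dync1i2, Dynlrb1 and Dynlrb2 have 1 probe set each, so their pairs could not be checked in this way.

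The intermediate chains shifted most from E14 to P0. Dync1i1 minus Dync1i2 was −3.19, −2.30 and −2.19 in mixed A and −2.70, −2.38 and −2.61 in mixed B at E14. At P0 the same difference was 0.18, 0.07 and −0.03 in mixed A and −0.09, 0.11 and −0.07 in mixed B. The change of 2.59 (exact permutation, adjusted p = 0.0039) went on to P14 by a further 0.84 (exact permutation, adjusted p = 0.0039), and the ranges at E14, P0 and P14 did not touch. Nin minus Ninl, both proteins of the centrosome, was 2.05, 2.43 and 2.28 in mixed A and 1.78, 2.26 and 1.51 in mixed B at E14. At P0 the Nin and Ninl difference was 4.37, 5.26 and 4.65 and 3.23, 3.94 and 3.72, a change of 2.14 (exact permutation, adjusted p = 0.0039) with no overlap. At P0 Ninl lay below the filter, so that this difference rests on a low signal.

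From P0 to P14 the roadblock chains shifted most. Dynlrb1 minus Dynlrb2 was 5.43, 5.04 and 4.86 in mixed A and 4.66, 4.66 and 4.60 in mixed B at P0. At P14 the roadblock difference was 6.72, 6.55 and 6.75 and 7.06, 7.12 and 6.87, higher by 1.97 (exact permutation, adjusted p = 0.0039) and without overlap. From E14 to P0 it had gone the other way, by −0.58 (exact permutation, adjusted p = 0.0162). In mixed B Dynlrb2 lay below the filter at P14, so that the P14 difference rests there on a low signal. Trak1 minus Trak2 was 0.82, 1.05 and 1.33 in mixed A and 0.50, 0.88 and 0.82 in mixed B at P0. At P14 the Trak difference was −0.33, −0.39 and −0.58 and −0.55, −0.72 and −0.59, a change of −1.43 (exact permutation, adjusted p = 0.0039). It depends on the probe sets: in this step the other one of Trak2 rose by only 0.41, and those of Trak1 ranged from −0.18 to 0.74.

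Capza1 minus Capza2 fell in both steps, by 0.76 and 1.35 (exact permutation, adjusted p = 0.0039 in each). The light intermediate chains gave −0.04 from E14 to P0 (exact permutation, adjusted p = 0.922) and 0.90 from P0 to P14 (exact permutation, adjusted p = 0.0039) for Dync1li1 minus Dync1li2. In that pair the P0 arrays of the backgrounds stood apart, as the plot of gene pairs shows. Dynll1 minus Dynll2 changed by 0.48 before birth (exact permutation, adjusted p = 0.0039) and by −0.07 after (exact permutation, adjusted p = 0.482). Mapk8ip1 minus Mapk8ip3 rose by 0.47 (exact permutation, adjusted p = 0.0106) and then fell by 0.61 (exact permutation, adjusted p = 0.0039), but with the second probe set of each gene the first change was −0.35 (exact permutation, adjusted p = 0.378). Hook1 minus Hook3 did not pass the test in either step, with −0.20 and −0.14.

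**Figure D3:**
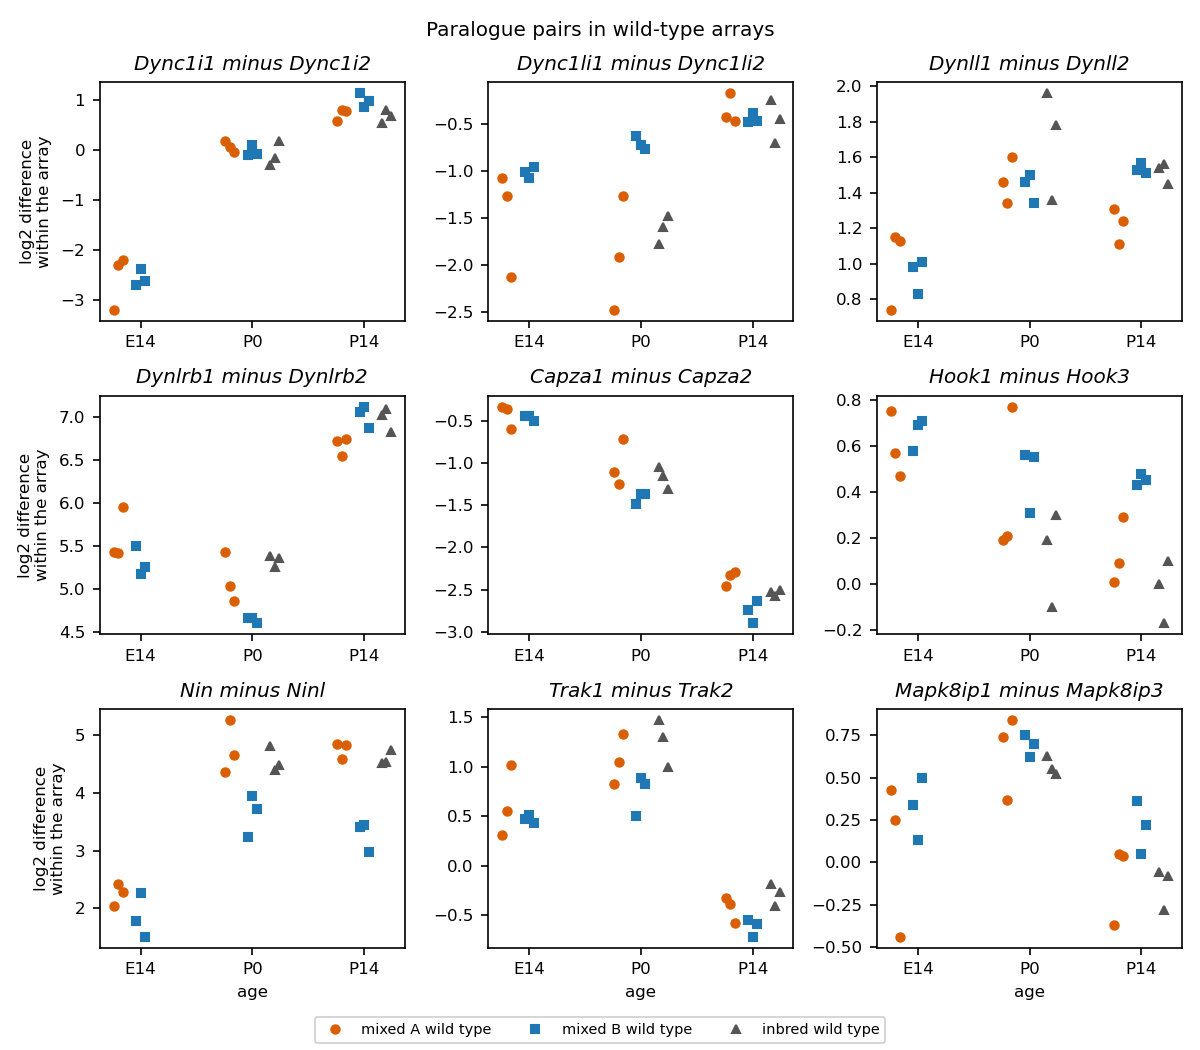
Log2 difference between the genes of each of 9 pairs within an array (vertical axis, 1 scale per panel) at E14, P0 and P14 (horizontal axis) in mixed A (circles), mixed B (squares) and inbred wild types (triangles). The intermediate chain difference runs from −3.19 to −2.19 at E14, from −0.09 to 0.18 at P0 and from 0.59 to 1.14 at P14 in the mixed arrays.

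In the inbred wild type, measured at P0 and P14, 18 of 34 genes were called, 11 higher and 7 lower, which is 52.9% against 71.2% of all genes (35.7% higher, 35.5% lower). The largest rises were again Trak2 (1.39 ± 0.14), Rilp (1.37 ± 0.15) and Dynlt3 (1.03 ± 0.09), and the largest falls Hook2 (−1.43 ± 0.16), Dynlrb2 (−1.30 ± 0.16) and Capza1 (−0.97 ± 0.08). Dync1li1 rose by 0.88 ± 0.21 (adjusted p = 0.000763, limma), and Mapk8ip1, called in the mixed backgrounds, had 0.20 ± 0.12 (adjusted p = 0.135). Dync1li2 changed by −0.28 ± 0.12 (adjusted p = 0.0437, limma), a call lost on the deposited scale, with every probe set, with the stricter filter, and without P0 inbred replicate 1 or 2 or P14 inbred replicate 1. The difference between the inbred change and that of both mixed backgrounds was called for 0 of 34 genes (limma), beside 0% of all genes. At an unadjusted p under 0.05 there were 0, and the largest difference was 0.78 ± 0.32 for Hap1. Here and below, shares of all genes are of genes called at an adjusted p, and none was counted at an unadjusted p.

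Mixed A and mixed B, both used as controls, differed after birth in many genes, and in these genes about as often. At E14 0 of 33 genes were called (limma; 4 at an unadjusted p under 0.05), as for 0.0681% of all genes. The E14 mixed A arrays varied widely, with meningeal markers at 6.25 to 9.22, against 8.78 to 9.04 in mixed B. The lack of calls at E14 therefore does not show that the backgrounds were alike. At P0 10 of 31 were called, 7 higher and 3 lower in mixed A, against 28.7% of all genes (18.1% higher, 10.7% lower). At P14 20 of 32 were called, 13 higher and 7 lower, against 52.7% (37.4% higher, 15.2% lower). The members' shares, 32.3% and 62.5%, lie near or little above those of all genes and show nothing particular to them. In mixed A 4 of 7 astrocyte markers were called higher at P0 (mean level 8.62 to 8.78, mixed B 8.32 to 8.55). At P14 5 of 8 astrocyte markers (median 0.52), 4 of 7 myelin markers (0.66) and 5 of 8 meningeal markers (0.57) were called higher in mixed A, and 1 astrocyte marker lower. Their part in the members' differences was not tested. The median of all genes was 0.04 higher in mixed A at P0 and 0.14 higher at P14, and the split depends on this: relative to the median gene 5 were higher and 4 lower at P0 and 9 higher and 10 lower at P14, and the higher share of all genes moved from 62.9% to 51.4% and from 71.1% to 50.1%.

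Dync1li1, a light intermediate chain, read 7.62, 7.93 and 8.27 in mixed A and 9.21, 9.08 and 9.16 in mixed B at P0, without overlap, a difference of −1.21 ± 0.15 (adjusted p = 1.38e-06, limma). At P14 the Dync1li1 values met, at 9.32, 9.65 and 9.43 and 9.27, 9.34 and 9.30. Dctn5, of the pointed end of dynactin, was higher in mixed A at P0 by 0.74 ± 0.19 (adjusted p = 0.00429, limma). The arrays overlapped, at 10.17, 10.05 and 9.58 in mixed A and 9.78, 8.88 and 8.93 in mixed B. Dctn5 also varied widely within groups, with 10.70, 10.74 and 8.53 in mixed A at P14. Mapk8ip3 and Mapk8ip1 were higher in mixed A at P0 (0.56 ± 0.10 and 0.52 ± 0.12) and at P14 (0.79 ± 0.11 and 0.49 ± 0.09). Hap1 read 8.60, 8.29 and 8.35 in mixed A and 7.60, 7.01 and 7.56 in mixed B at P14, a difference of 1.03 ± 0.15 (adjusted p = 7.48e-06, limma) with no overlap. Dync1i1 went the other way at P14, with 10.41, 10.44 and 10.56 in mixed A and 11.18, 11.15 and 11.16 in mixed B (−0.69 ± 0.10, adjusted p = 3.87e-06, limma). Dctn6 differed at P14 by −0.97 ± 0.16, lower in mixed A (adjusted p = 2.19e-05, limma), but its other probe set was higher there by 0.40 ± 0.08 (adjusted p = 0.00019).

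At P0 the calls of Rab11fip3 (0.46), Dctn4 (−0.29) and Trak1 (0.26) were kept in 2, 2 and 1 of the 6 fits that left out 1 array, and without P0 mixed B replicate 1 the count was 6. The inbred wild type set against both mixed ones gave 0 of 31 genes at P0 (limma; 8 at an unadjusted p under 0.05; 1% of all genes) and 0 of 32 at P14 (limma; 0 at an unadjusted p under 0.05; 0.244%). Against mixed B alone 16 and 18 were called, beside 45.4% and 48.6% of all genes, and against mixed A alone 1 (Dctn5, −1.10 ± 0.19) and 0, beside 2.44% and 4.2%.

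Both backgrounds also differed in how these genes changed from P0 to P14. The difference between the change in mixed A and that in mixed B was called for 7 of 34 genes, 3 higher and 4 lower (20.6%, against 10% of all genes, 4.28% higher and 5.71% lower), and 11 had an unadjusted p under 0.05. Dync1li1 changed by 1.36 in mixed A and by 0.06 in mixed B, a difference of 1.28 ± 0.30 (adjusted p = 0.00866, limma). Dynlrb2 changed by −1.08 in mixed A and −2.10 in mixed B (1.01 ± 0.22, adjusted p = 0.00622, limma), and these 2 calls were kept in all 12 fits that left out 1 array. The P14 mixed B values of Dynlrb2 lay below the filter. The count was 3 with no filter. On the deposited scale 4 were higher and 0 lower (all genes 69.3% higher, against 42.8%), and after quantile normalization 4 were higher and 1 lower.

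In the mutants few of these genes moved beyond both mixed wild types, and those that did lay in 3 groups. Since the labels do not tie a mutant to a background, a gene was called in a mutant only where it differed from mixed A and from mixed B in the same direction, with the larger of both p-values adjusted over all genes. Comparisons at 1 age share these controls. The comparisons are set side by side in the map of backgrounds and mutants.

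**Figure D4:**
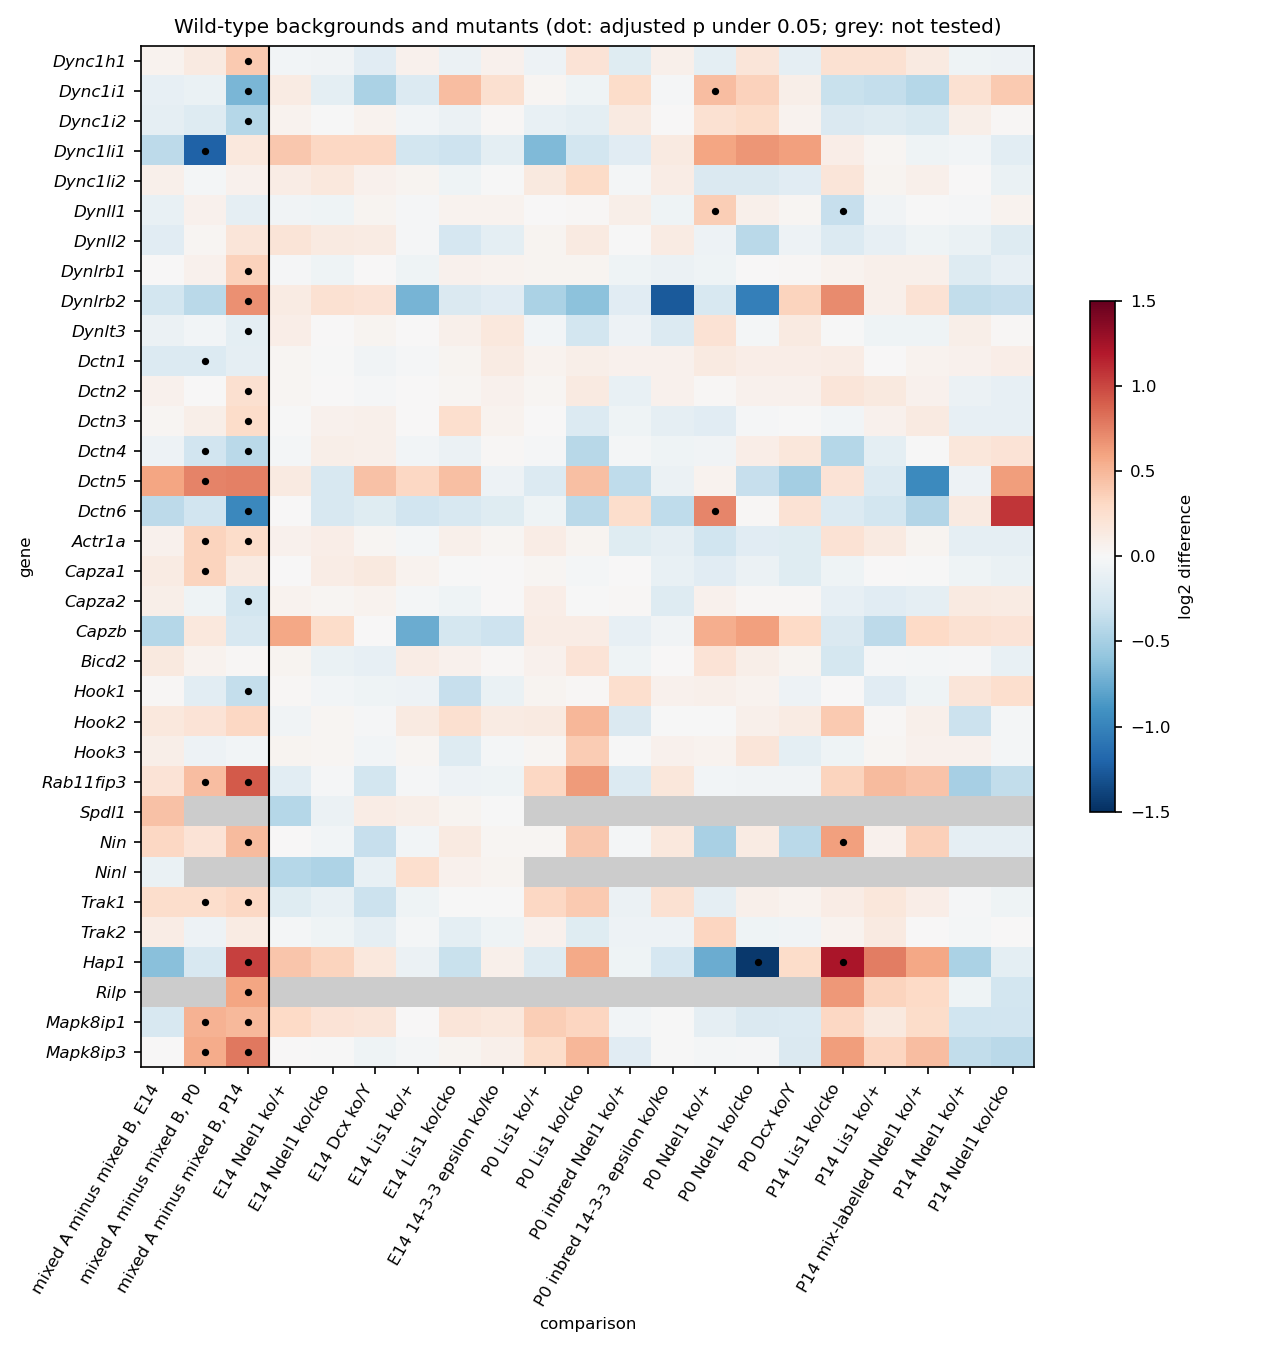
Log2 difference (colour, red higher) of each of the 34 genes (vertical axis) between mixed A and mixed B at each age (left 3 columns) and between each mutant and its wild-type controls (other columns); a dot marks an adjusted p under 0.05 and grey a gene below the filter. Dots are dense in the columns of the 2 mixed backgrounds at P0 and P14 and number 4 among all P0 mutants and 3 among all P14 mutants.

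At E14 0 of 33 genes were called by limma in each of the 6 mutants, beside 0.0341% of all genes in Ndel1 ko/+, 0.0426% in Dcx ko/Y and 0% in Ndel1 ko/cko, Lis1 ko/+, Lis1 ko/cko and 14-3-3 epsilon ko/ko. At an unadjusted p under 0.05 there were 2 in Lis1 ko/cko and 0 in the other 5 groups. The smallest adjusted p belonged to Hook1 in Lis1 ko/cko, which read 9.59, 9.53 and 9.17, against 9.88, 9.70 and 9.80 in mixed A and 9.74, 9.78 and 9.79 in mixed B. Its difference was −0.35 ± 0.08 (adjusted p = 0.54, limma). The 6 arrays with a low level of hindbrain genes, which cut across groups, did not overlap with the other 18 in 5 of the 33 genes tested at E14 (15.2%, against 10.2% of all genes). Hap1 ranged from 7.50 to 7.95 in them and from 8.32 to 9.01 in the others, Dynll2 from 11.41 to 11.83 and 11.95 to 12.23, and Mapk8ip1 from 7.78 to 8.22 and 8.25 to 8.76. Hook2 (6.09 to 6.35 against 5.61 to 6.07) and Trak1 (9.0 to 9.54 against 8.55 to 8.94) were higher in the 6 arrays. Without those arrays Lis1 ko/cko keeps only replicate 2 and mixed A only replicate 1, so no count of calls is read from that fit.

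At P0 Ndel1 ko/+ had 3 of 31 genes called, all higher (9.68%, against 4.05% of all genes and 1.43% called higher). Dynll1, the LC8 light chain, read 13.05, 13.04 and 13.02, against 12.75, 12.57 and 12.77 in mixed A and 12.67, 12.66 and 12.56 in mixed B. All mutant arrays lay above all controls, by 0.37 ± 0.08 (adjusted p = 0.0104, limma), and 2 of 3 further probe sets were called higher, at 0.39 ± 0.09 and 0.37 ± 0.08. The call was lost without P0 mixed A replicate 2. Dync1i1 read 10.98, 11.11 and 11.07, against 10.50, 10.56 and 10.57 and 10.65, 10.70 and 10.59, without overlap, a difference of 0.46 ± 0.11 (adjusted p = 0.0264, limma). It was kept in 4 of 9 fits that left out 1 array, and lost without any of the mixed B arrays or Ndel1 ko/+ replicate 2 or 3. Dctn6, of the pointed end of dynactin, read 10.53, 10.84 and 10.84, against 9.78, 9.82 and 9.99 and 10.14, 9.99 and 10.32, higher by 0.73 ± 0.14 (adjusted p = 0.0124, limma). That call was lost without P0 mixed B replicate 2 or Ndel1 ko/+ replicate 2 or 3, and the other probe set of Dctn6 gave −0.16 ± 0.10 (adjusted p = 0.771). In the same arrays neuron markers had a mean level of 9.73 to 9.91, against 9.46 to 9.56 in mixed A and 9.51 to 9.62 in mixed B, and meningeal markers 7.90 to 8.18, against 8.67 to 8.68 and 8.28 to 8.59. Their part in these differences was not tested.

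P0 Ndel1 ko/cko had 1 of 31 genes called (0.849% of all genes, 0.713% called lower). Hap1, which links huntingtin and vesicles to dynactin, read 6.25, 7.21 and 6.67, against 8.0, 7.53 and 8.58 in mixed A and 8.69, 8.16 and 7.98 in mixed B. Every mutant array lay below every control, a difference of −1.45 ± 0.23 (adjusted p = 0.00599, limma). The call was lost without Ndel1 ko/cko replicate 1 and kept without replicate 3, in which Xist was high. In Ndel1 ko/+ Hap1 read 7.47, 7.33 and 7.41 and was called against each mixed background alone but not against both together (adjusted p = 0.127, limma). Dynlrb2 differed in P0 Ndel1 ko/cko by −1.03 ± 0.28 (adjusted p = 0.205) and Dynll2 by −0.40 (adjusted p = 0.0915). Markers of ciliated ependyma had a mean level of 4.84 to 4.91 there, against 5.11 to 5.50 in mixed A and 5.12 to 5.25 in mixed B, and astrocyte markers 8.12 to 8.27, against 8.62 to 8.78 and 8.32 to 8.55. Their part was not tested.

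The other P0 mutants had 0 of 31 genes called by limma: Lis1 ko/+ (0 at an unadjusted p under 0.05, 0% of all genes), Lis1 ko/cko (7, 0.331%), Dcx ko/Y (0, 0.0255%), inbred Ndel1 ko/+ (4, 0.255%) and inbred 14-3-3 epsilon ko/ko (5, 0.0255%), the latter both against the inbred wild type. The percentages are of all genes called at an adjusted p, so they are not a background for the unadjusted counts. In inbred 14-3-3 epsilon ko/ko Dynlrb2 read 5.03, 5.40 and 5.66, against 6.63, 6.56 and 6.67, all below the controls (−1.26 ± 0.28, adjusted p = 0.191, limma). Ependymal markers were at 4.84 to 4.99 there and at 5.12 to 5.17 in the inbred wild type, and their part was not tested.

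At P14 Lis1 ko/cko had 3 of 32 genes called, 2 higher and 1 lower (9.38%, against 6.32% of all genes, 3.52% higher and 2.8% lower). Dynll1 read 12.75, 12.77 and 12.93, against 13.02, 13.10 and 13.16 in mixed A and 13.19, 13.27 and 13.21 in mixed B. All mutant arrays lay below all controls (−0.34 ± 0.06, adjusted p = 0.0103, limma). Of 3 further probe sets of Dynll1 1 was called lower, at −0.40 ± 0.08 (adjusted p = 0.0151), and the others gave −0.36 and −0.10. Hap1 read 9.46, 9.05 and 8.84, against 8.60, 8.29 and 8.35 and 7.60, 7.01 and 7.56, above both controls by 1.22 ± 0.15 on average (adjusted p = 0.0109, limma), though the controls themselves differed by 1.03. Nin, which anchors microtubules at the centrosome, read 8.36, 8.41 and 8.19, against 8.01, 7.82 and 8.03 and 7.36, 7.68 and 7.37, higher by 0.61 ± 0.11 (adjusted p = 0.0489, limma). A further probe set of Nin was called higher (0.59 ± 0.15, adjusted p = 0.0242) and the other gave −0.10 ± 0.14. The Nin call was kept in 2 of 9 fits that left out 1 array and was lost with no filter, with the replicate block and with every probe set. The calls of Dynll1 and Hap1 were lost without Lis1 ko/cko replicate 1 or 2, and that of Dynll1 also without mixed A replicate 3 and that of Hap1 without mixed A replicate 2. In these arrays markers of proliferating cells were at 5.56 to 5.75, against 6.01 to 6.04 in mixed A and 5.89 to 5.98 in mixed B, and ependymal markers at 5.46 to 5.57, against 5.36 to 5.37 and 5.04 to 5.19. Their part was not tested.

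The other P14 mutants had 0 of 32 genes called by limma: Lis1 ko/+ (1 at an unadjusted p under 0.05, 0% of all genes), mix-labelled Ndel1 ko/+ (0, 0.114%), Ndel1 ko/+ (0, 0%) and Ndel1 ko/cko (1, 0.0895%). The choice of control decides these counts, for the members as for all genes. Against mixed A alone 21 genes were called in P14 Ndel1 ko/+ (52.3% of all genes) and 22 with the ko/cko alleles (52.8%), and against mixed B alone 0 (0%) and 0 (0.179%). Against mixed B alone 19 were called in Lis1 ko/+ (52.6% of all genes), 19 in mix-labelled Ndel1 ko/+ (52.6%) and 21 in Lis1 ko/cko (59.7%). Against mixed A alone these were 0 (0.00813%), 0 (0.968%) and 5 (13.9%). At P0 the counts against mixed A alone were 0 in Lis1 ko/+ (0% of all genes), 0 with its ko/cko alleles (2.36%), 16 in Ndel1 ko/+ (42.9%), 13 with its ko/cko alleles (33.8%) and 10 in Dcx ko/Y (30%). Against mixed B alone they were 6 (20.7%), 14 (32.8%), 5 (9.47%), 4 (3.72%) and 0 (0.034%) in the same order. The members' counts followed the share of all genes, and nothing particular to them is read from these counts.

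**Figure D5:**
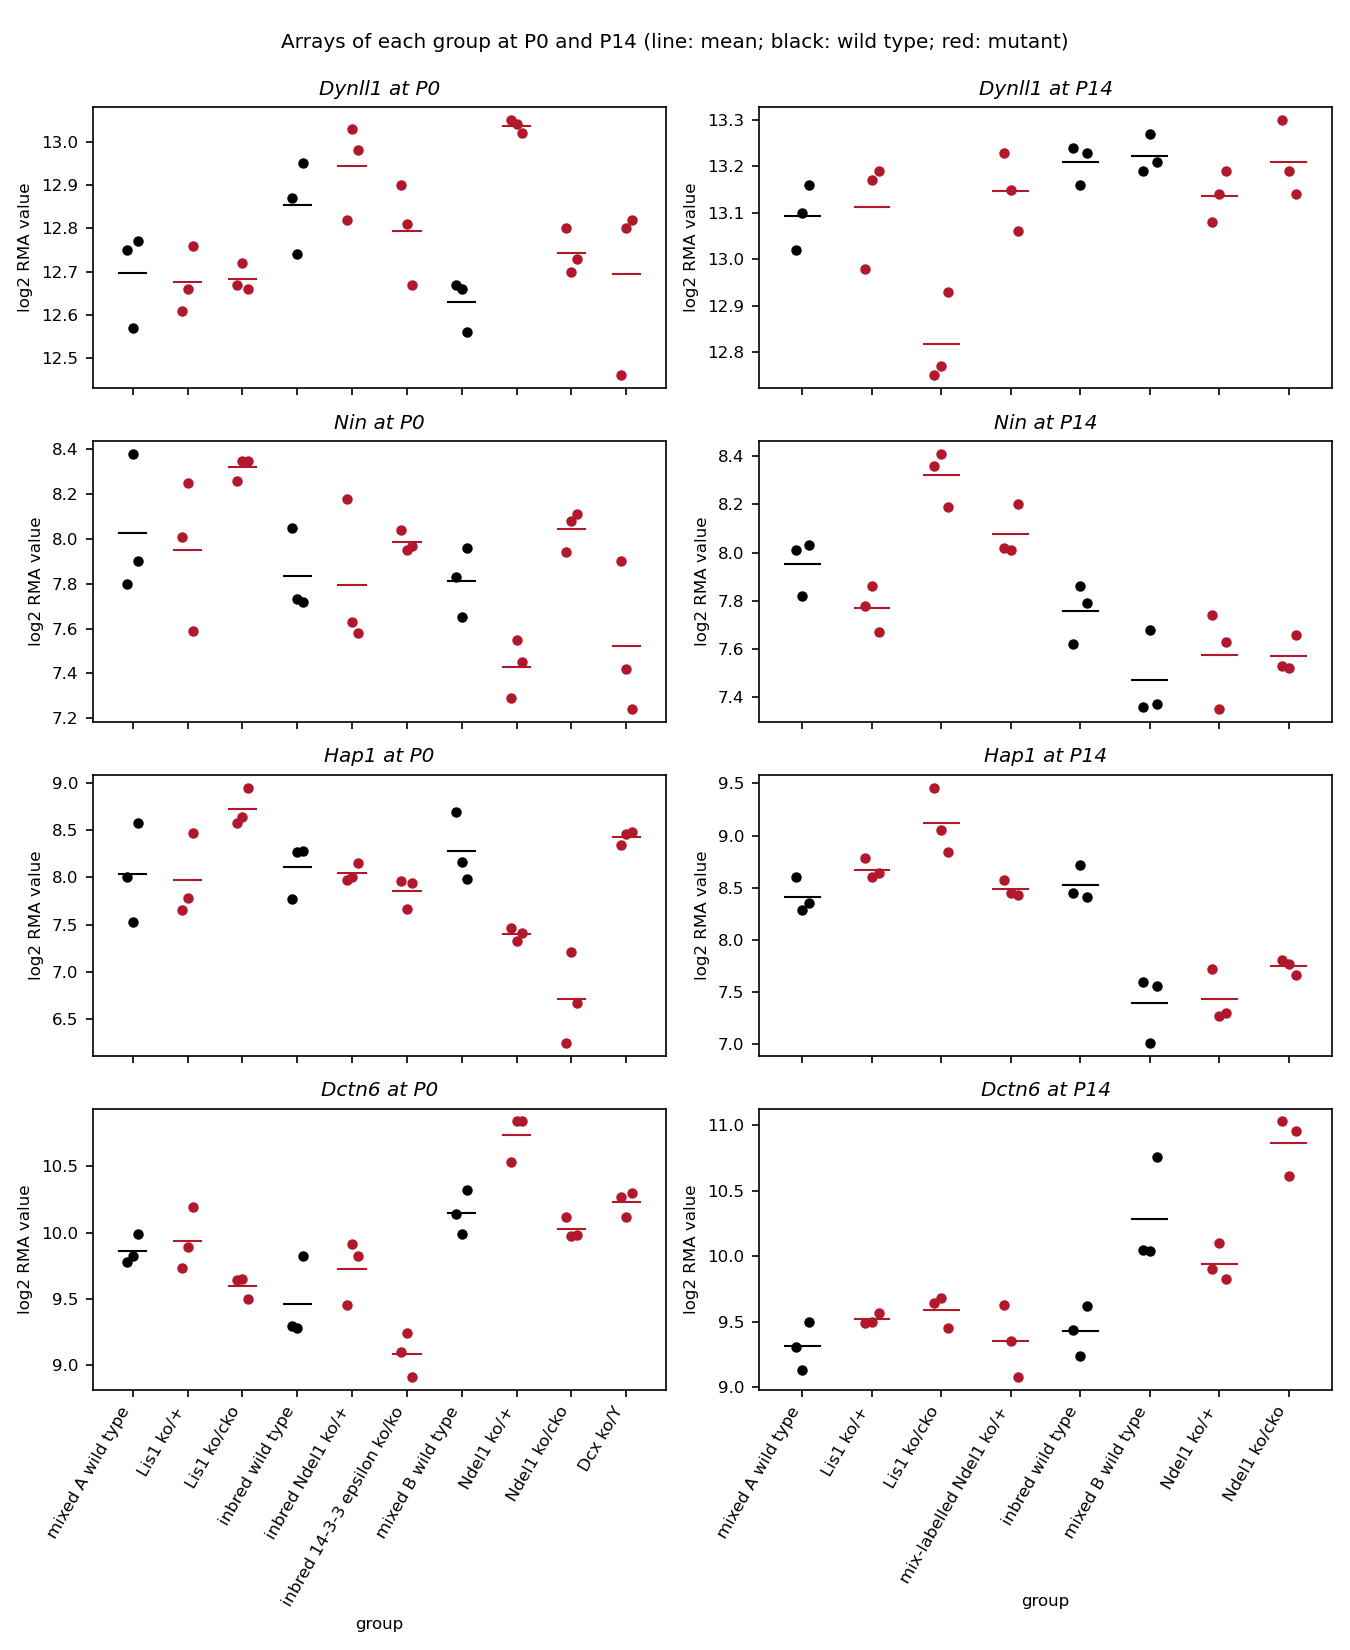
Log2 RMA value (vertical axis, 1 scale per panel) of Dynll1, Nin, Hap1 and Dctn6 in each array of every group (horizontal axis) at P0 (left) and P14 (right); black points are wild types, red points mutants and lines the group means. Hap1 is lowest in P0 Ndel1 ko/cko (6.25 to 7.21), and at P14 it splits the wild types into mixed A with inbred and mixed B.

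Within a gene, ko/cko can be set against ko/+ without a wild type, though the targeted gene itself does not show ko/cko to be the lower dose on these arrays. Ndel1 had a mean of 9.82 in ko/cko and 9.45 in ko/+ at E14 and of 9.56 and 9.33 at P0, and differed little at P14. Pafah1b1 was lower in Lis1 ko/cko than in ko/+ at E14 (9.84 and 10.07) but not at P0 (10.08 and 10.01) or P14 (10.36 and 10.21). For Lis1 0 of 33 genes were called by limma at E14, beside 0.0426% of all genes, and 0 of 31 at P0, beside 0.569%. At an unadjusted p under 0.05 there were 4 and 10, with no share of all genes counted at that threshold. At P14 2 of 32 genes were called (8.02% of all genes, 5.16% higher and 2.86% lower). These were Dynll1, at −0.29 ± 0.06 (adjusted p = 0.00793, limma), and Nin, at 0.55 ± 0.11 (adjusted p = 0.00805, limma). Lis1 ko/+ read 12.98, 13.17 and 13.19 for Dynll1 and 7.78, 7.86 and 7.67 for Nin, so that neither overlapped with the ko/cko arrays given above. Both calls were lost without Lis1 ko/cko replicate 1 or 2. At P14 neuron markers had a mean level of 11.58 to 11.62 in ko/cko and 11.64 to 11.67 in ko/+. Myelin markers were at 8.94 to 9.54 in ko/cko and 9.54 to 9.83 in ko/+. Markers of proliferating cells were at 5.56 to 5.75 and 5.70 to 5.92, and meningeal markers at 8.10 to 8.58 and 7.57 to 8.20. The part of these markers was not tested.

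For Ndel1 0 of 33 genes were called at E14 (limma; 0 at an unadjusted p under 0.05; 0.128%), 4 of 31 at P0 (9.13%; 5.93% higher, 3.21% lower) and 1 of 32 at P14 (0.309%; 0.163% higher). At P0 Dctn6 read 10.12, 9.97 and 9.98 in ko/cko, below the ko/+ arrays (−0.71 ± 0.14, adjusted p = 0.00204, limma). At P14 Dctn6 went the other way, with 9.90, 10.10 and 9.83 in ko/+ and 11.03, 10.61 and 10.96 in ko/cko (0.92 ± 0.16, adjusted p = 0.00553, limma), a call lost without P14 Ndel1 ko/+ replicate 3. The other probe set of Dctn6 gave −0.06 ± 0.10 and 0.09 ± 0.08. Dynll1 was lower in ko/cko at P0, at 12.80, 12.70 and 12.73 (−0.30 ± 0.08, adjusted p = 0.0166, limma). Dync1h1, the heavy chain, read 10.65, 10.61 and 10.68 in ko/+ and 10.93 at the lowest and 11.02 at the highest in ko/cko (0.34 ± 0.09, adjusted p = 0.0212, limma). Nin read 7.29, 7.55 and 7.45 and 7.94, 8.08 and 8.11 (0.61 ± 0.17, adjusted p = 0.0263, limma), and its 2 further probe sets, at 0.42 and 0.47, were not called. None of these 4 genes overlapped between the allele groups at P0. The calls of Dynll1, Dync1h1 and Nin were kept in 2, 1 and 1 of 6 fits that left out 1 array, and that of Dctn6 in all 6. Each of the other 3 was lost without ko/+ replicate 1 and without ko/cko replicate 2 or 3. Xist was high in ko/cko replicate 3 (11.54) and low in replicate 2 (4.26). Neuron markers had a mean level of 9.45 to 9.54 in ko/cko and 9.73 to 9.91 in ko/+ at P0, and markers of proliferating cells 7.52 to 7.66 and 7.22 to 7.34. Their part in these differences was not tested.

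Of 13 regulators 3 rose and 2 fell from E14 to P0 (38.5%, against 46% of all genes), with a median change of 0.01: Mapre3, a microtubule end-binding protein (0.85 ± 0.12), and Cdk5, a neuronal kinase (0.51 ± 0.07), rose, and Nde1, the paralogue of Ndel1 in dividing progenitors (−2.20 ± 0.10), and Nudcd2 (−1.07 ± 0.12) fell. Pafah1b1 and Ndel1 themselves changed by 0.01 ± 0.09 and 0.10 ± 0.07 and were not called. From P0 to P14 4 regulators rose and 2 fell (46.2%, against 55.7% of all genes), with a median of −0.08. Nde1 (0.90) and Mapre3 (0.70) rose most, and Nudc (−0.26) and Ywhae (−0.22) fell.

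Of 22 further adaptors and cargo receptors 4 rose and 7 fell from E14 to P0 (50%, median −0.09). Syne1, which ties the nucleus to the cytoskeleton (0.73), and Mapk8ip2, the neuronal relative of Mapk8ip1 (0.62), rose. Zwilch (−2.35 ± 0.13) and Kntc1 (−1.86 ± 0.14), parts of the kinetochore complex that recruits Spindly, the product of Spdl1, fell. From P0 to P14 6 rose and 10 fell (72.7%, median −0.27), with Syne1 (1.86) and Mapk8ip2 (0.81) up and Syne2 (−1.47) and Ccdc88c (−1.39) down. Of 9 genes of dynein 2, the motor inside cilia, and its cargo trains 1 rose from E14 to P0 (11.1%; Wdr34, 0.49), and from P0 to P14 2 rose (Ift172 0.61, Ift20 0.46) and 4 fell (66.7%), Wdr34 (−0.70) and Wdr60 (−0.62) most.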

How the data were processed

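The deposited values are log2 RMA signals of 45101 probe sets in 78 mouse brain arrays. RMA is named in the submitters' processing notes, and its version and the joint or separate normalization of ages are not given in the sources used here. Total RNA was extracted with Trizol and labelled with biotin, per the labels' protocols. No value was missing, and 0 columns lacked a sample. Of the probe sets 34958 are listed with 1 gene, 932 with several, 64 are controls and 9160 are unlisted. Each gene (18194 in all) is represented by its probe set of highest mean over all arrays.

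The root mean square distance of sorted columns had a median of 0.0342 for arrays of 1 age and 0.156 for arrays of different ages, so changes across ages were tested against the median shift of all tested genes (−0.16 and −0.21 from E14 to P0 and 0.17 and 0.09 from P0 to P14 in mixed A and mixed B, 0.04 in the inbred wild type). Tests within an age used the values as deposited. Genes entered a fit where at least 1 group mean in it reached 5.253, the median of all values. This left 12865 genes over the wild types (34 members), 11744 at E14 (33, without Rilp), 11780 at P0 (31, without Spdl1, Ninl and Rilp) and 12297 at P14 (32, without Spdl1 and Ninl).

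All arrays of an age, or all wild types, entered 1 limma fit (limma 3.58.1, R 4.3.3, trend in the prior variance), with Benjamini-Hochberg adjustment over all genes and calls at an adjusted p under 0.05. Against both mixed wild types the larger p counted where both differences had 1 sign, and otherwise p was set to 1; the printed difference is their mean and the standard error the larger one. The scripts were tested on simulated data. Gene pairs were tested by exact permutation of arrays.

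The members and lists were chosen with earlier results of these data known. Values in every array are given for the 3 largest rises and falls of each developmental step, the 2 pairs with the largest change per step and members called in a mutant, and other lists name up to 2 genes per direction and step. Hook1 in E14 Lis1 ko/cko, Dynlrb2 in inbred 14-3-3 epsilon ko/ko and the members described between mixed A and mixed B were chosen after their values were seen. Alternatives were another filter, no filter, quantile normalization, a replicate block, the deposited scale or the median gene, 1 control alone, every probe set, and leaving out arrays. The precision is limited by 3 arrays per group. Same-numbered replicates did not deviate together: the correlation was over 0.1 in 21 of 84 pairs at E14, 26 of 135 at P0 and 14 of 84 at P14.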

Additional observations from a re-analysis of the deposited data

Results flagged for a closer look

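The change from P0 to P14 differed between mixed A and mixed B, by the test of the difference itself (limma, adjusted over 12865 genes), in 7 members. Given as mixed A minus mixed B with the change in each, all relative to the median gene of that contrast, these were Dync1li1 with 1.28 (1.36 and 0.06), Hap1 with 1.18 (0.21 and −0.98), Dynlrb2 with 1.01 (−1.08 and −2.10), Dctn6 with −0.78 (−0.72 and 0.04), Dync1i1 with −0.68 (−0.24 and 0.43), Capza2 with −0.31 (0.45 and 0.75) and Dynll1 with −0.29 (0.23 and 0.50).

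The calls of Dync1li1 and Dynlrb2 were kept in all 12 fits that left out 1 array, that of Capza2 in 8, that of Dctn6 in 6, that of Dynll1 in 5 and that of Dync1i1 in 0. Hap1 lost its call without P0 mixed B replicate 1, P14 mixed A replicate 1 or P14 mixed B replicate 2. Dctn6, Capza2 and Dynll1 were not called with no filter, and the other probe set of Dctn6 gave 0.25 (adjusted p = 0.241). Dynlrb2 lay below the filter in mixed B at P14. Mixed A and mixed B lie on opposite sides of the first principal component at P0 and P14, and what this has to do with the differences was not tested.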

How the results depend on the processing

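Of the tests of single members and pairs under other settings, 1471 kept their direction and side of the threshold, 156 lost the call and 1 turned: Mapk8ip1 minus Mapk8ip3 from E14 to P0, at −0.35 with the second probe sets. The counts of both developmental steps stayed within 1.5 times 17 under every alternative run, with 13 and 13 at the 75th percentile filter and 17 and 17 with the replicate block. The replicate numbers do not pair the samples; the block moved 1 count by over 1.5 times, that of the inbred mutants, from 0 to 1.

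The choice of control moved most counts. With mixed A alone and mixed B alone the calls were 39 and 29 among P0 mutants (4 with both), 48 and 59 among P14 mutants (3 with both) and 1 and 16 for the inbred wild type at P0 (0 with both). Over the tests of these mutants the members' shares were 25.2% and 18.7% at P0, against 21.8% and 13.3% of all genes, and 30% and 36.9% at P14, against 24% and 33%. Mixed B alone gave 18 for the inbred wild type at P14, 1 among E14 mutants and 4 for the difference of the inbred change (each 0 with both; 0.505% of E14 member tests, against 0.335% of all genes, and 8.91% of all genes for the last). Without the 6 arrays of low hindbrain level E14 Lis1 ko/cko keeps only replicate 2 and E14 mixed A only replicate 1. Leaving out E14 14-3-3 epsilon replicates 1 and 2, which keep Ywhae, was chosen after seeing the data and keeps only replicate 3. No count of calls is read from these fits. The difference between mixed A and mixed B in the P0 to P14 change had 3 calls with no filter and 4 on the deposited scale (7 with the filter and shift). The cause was not tested.

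Leaving out 1 replicate gave 14 to 18 calls from E14 to P0, 16 to 18 from P0 to P14 and 17 to 19 in the inbred wild type. Mixed A against mixed B gave 0 at E14, 6 to 10 at P0 (6 without P0 mixed B replicate 1) and 19 to 22 at P14, and 3 to 6 for the difference in change (3 without P14 mixed A replicate 1 or P14 mixed B replicate 2, 4 without P0 mixed B replicate 2 or 3 or P14 mixed A replicate 2). The inbred wild type against both gave 0 to 1 at P0 (1 without inbred replicate 1 or 3) and 0 at P14. Mutants gave 0 to 2 at E14 (2 without Lis1 ko/cko replicate 1), 2 to 5 at P0 (2 without mixed B replicate 2 or Ndel1 ko/+ replicate 2 or 3) and 0 to 6 at P14 (0 without Lis1 ko/cko replicate 1 or 2, 6 without its replicate 3, 1 without mixed A replicate 2 or 3). Lis1 ko/cko against ko/+ gave 0 to 7 (0 without P14 ko/cko replicate 1 or 2, 7 without P14 ko/cko replicate 3 or E14 ko/cko replicate 1), and Ndel1 ko/cko against ko/+ 2 to 5 (2 without P0 ko/+ replicate 1 or ko/cko replicate 3, 3 without ko/+ replicate 2 or 3 or ko/cko replicate 2). Spdl1 and Ninl at P0 and P14, Rilp at E14 and P0 and Dynlrb2 in mixed B at P14 lie below the filter, where signal over background limits the values. So do the Hook2 values 5.14 and 5.16 in mixed B at P14.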
